A study of Mus musculus with 4 samples.

Results

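Cx3cr1 positive macrophages are the capsule cells examined here: macrophages of the mouse renal capsule that carried transcripts of the fractalkine receptor Cx3cr1 and few or none of the resident markers Lyve1 and Fcna. Single cells were chosen on their own unique molecular identifiers (UMIs, which count transcript molecules). A member had at least 6 UMIs of the complement genes C1qa, C1qb and C1qc together, at least 1 UMI of Cx3cr1, fewer than 3 UMIs of Lyve1 and Fcna together, fewer than 2 UMIs of the cycling genes Mki67 and Top2a, and 0 UMIs of Cd3e and Cd79a. Of 37361 cells kept, 1374 (3.68%) met the rule. They numbered 250 and 494 in the aged libraries and 358 and 272 in the young libraries.

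CX3CR1 is the receptor of fractalkine, a ligand that can be tethered to cell membranes, and it is carried by monocytes, microglia and many tissue macrophages. In several tissues macrophages with CX3CR1 and much MHC class II have been described beside LYVE1 positive macrophages, which bear scavenger and lectin receptors such as FOLR2, TIMD4 and CD209 family members. MHC class II molecules present peptides from engulfed material to CD4+ T cells.

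The renal capsule is the connective tissue sheath of the kidney. Capsules of aged and young untreated mice were profiled, with 2 libraries per age. Each capsule preparation was cut up, digested with a collagenase blend and DNase and sieved, and droplet 3' libraries with UMIs were made from the whole suspension with no sort. The labels used here give no age in weeks, no strain and no number of mice per library. The p-values below therefore reflect the spread among 4 libraries, which may be technical.

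Levels below are CPM, the UMIs of a gene per 1000000 UMIs of the gated cells of a library. The 4 sums of Cx3cr1 positive cells held 1945768 and 2773044 UMIs in the aged and 2079844 and 1558572 UMIs in the young libraries, and the median cell had 7019 and 5031.5 UMIs in the aged and 5133.5 and 5080.5 UMIs in the young libraries. Libraries shared between 18 and 37 cell barcodes in each pair, out of 6763 to 11973 kept barcodes. The members were set beside 2 other gates of the same libraries. Lyve1 Fcna macrophages (7145 cells) had the same 6 C1q UMIs and at least 3 UMIs of Lyve1 and Fcna. Low macrophages (1437 cells) met every condition of the members except that they had 0 UMIs of Cx3cr1.

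The Cx3cr1 threshold cut through a continuous range. Of the members, 342 (24.9%) had 1 Cx3cr1 UMI, 256 (18.6%) had 2 and 776 (56.5%) had 3 or more, while the 1437 low cells lay just outside. Just inside the C1q limit were 19 members with 6 or 7 UMIs, and just outside it were 29 cells with 4 or 5. Just inside the limit on Lyve1 and Fcna were 64 members with 2 UMIs, and just outside it were 67 cells with 3 or 4. Neither Lyve1 nor Fcna had a UMI in 1122 members (81.7%). Another 295 cells had both a Cx3cr1 UMI and at least 3 UMIs of Lyve1 and Fcna, and stayed outside.

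The label was checked against the markers named for these cells and against those of other cells. Cx3cr1 (chr9:119901616-120069879, build GRCm38, protein-coding), which the rule used, had 647, 677, 669 and 627 CPM in aged replicates 1 and 2 and young replicates 1 and 2, in that order. Lyve1 Fcna cells had 8.28 to 16.9 CPM of it. The markers Ccl12 (chr11:82101845-82103400), a chemokine gene, Lilra5 (chr7:4237754-4243463), a leukocyte immunoglobulin-like receptor gene, and Cd72 (chr4:43446462-43454628), a gene for a C-type lectin-like receptor best known from B cells, were named with results of these data known, and their differences between gates are given as values. Ccl12 had 627 to 789 CPM in the members, 91.0 to 106 CPM in Lyve1 Fcna cells and 230.5 to 521 CPM in low cells. Lilra5 had 137 to 217 CPM in the members, 4.81 to 14.9 CPM in Lyve1 Fcna cells and 28.1 to 47.3 CPM in low cells. Cd72 had 211 to 261 CPM in the members, 15.2 to 23.8 CPM in Lyve1 Fcna cells and 32.0 to 71.2 CPM in low cells. For each of these markers the 4 member values lay above all 8 values of the other gates.

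**Figure D1:**
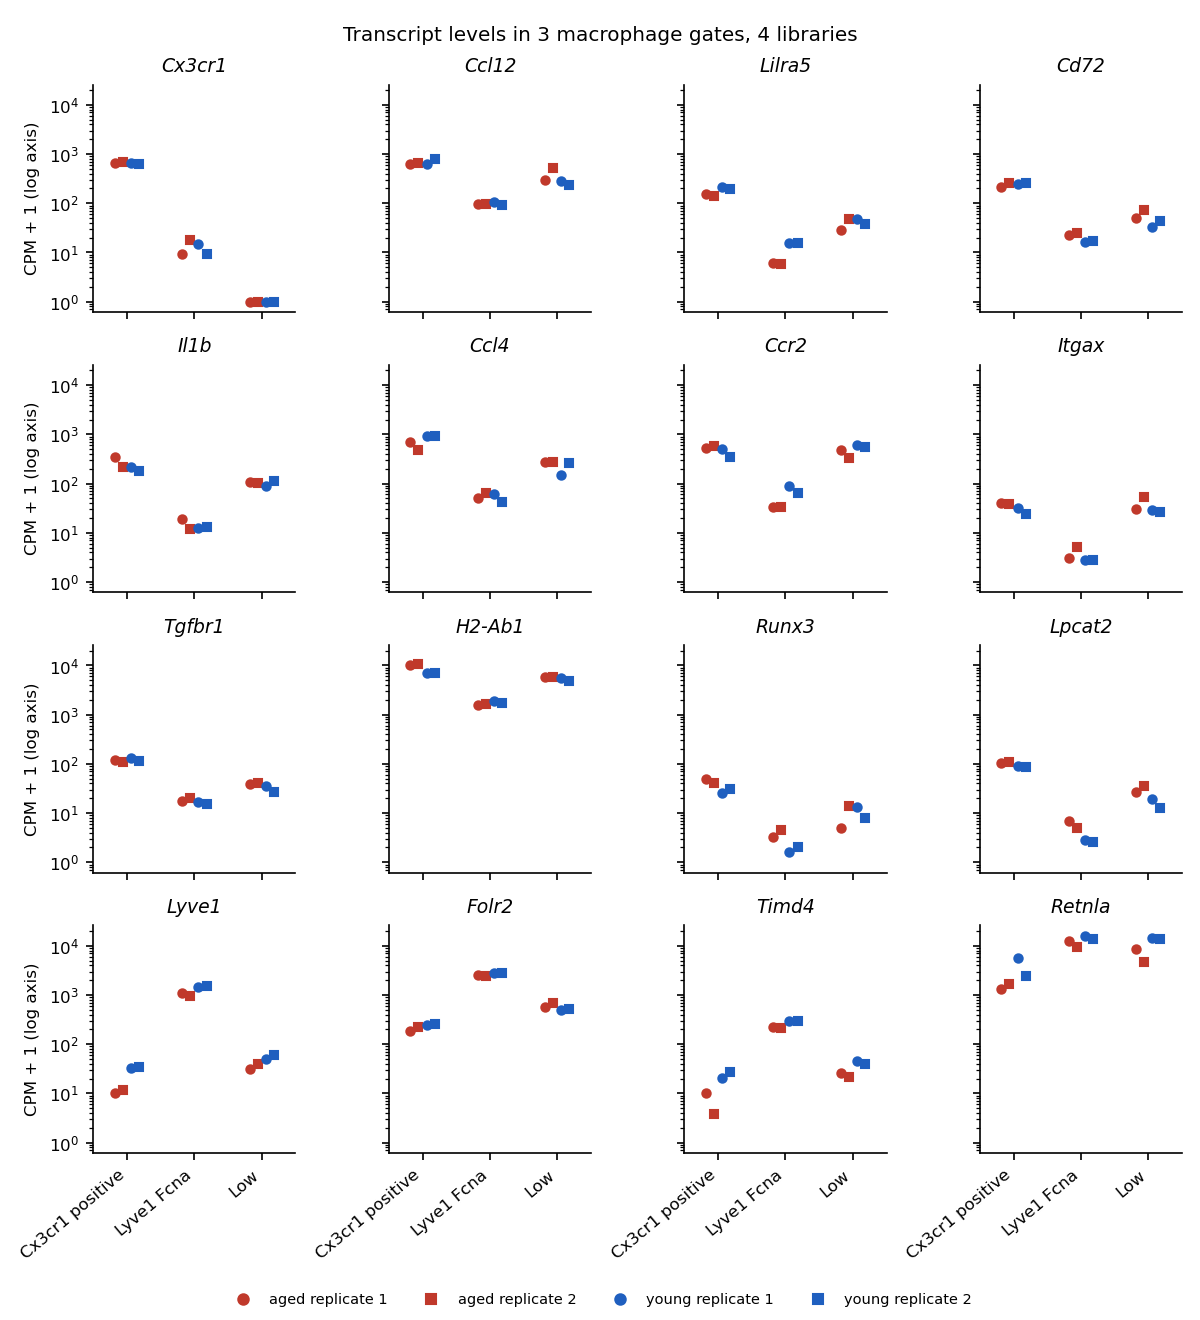
Levels (CPM + 1, log axis, shared by all panels) of 16 genes in the Cx3cr1 positive, Lyve1 Fcna and low macrophage gates, 1 point per library. Cx3cr1 and Lyve1 were used to cut the gates. Ccl12, Lilra5 and Cd72 sit highest in the Cx3cr1 positive gate in every library, and Folr2, Timd4 and Retnla sit lowest there in every library.

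General macrophage genes were present in every library. Csf1r, the receptor of a growth factor that macrophages depend on, had 812 to 979.9 CPM, Adgre1, which encodes F4/80, had 343 to 420.4 CPM, and the endosomal glycoprotein gene Cd68 had 455 to 495 CPM. Ly6c2, a classical monocyte gene, had 2.88 to 24.2 CPM in the members and 1161 to 1540.3 CPM in monocytes gated from the same libraries. Chil3, another monocyte gene, had 0 to 11.5 CPM and 238 to 434 CPM in the same order. Ccr2, also a monocyte gene, had a higher level in the members, as given further on. Beside Lyve1 Fcna cells, 4 of 6 monocyte and 6 of 6 nonclassical monocyte genes were higher in the members and 0 lower (edgeR adjusted p under 0.05). Their median log2 differences were 1.39 and 1.83, and 19.4% of all genes tested were higher. The relation of the members to monocytes was not tested. The dendritic cell gene Flt3 had 0.962 to 4.11 CPM in the members. Of 6 dendritic cell genes tested beside Lyve1 Fcna cells, 2 were higher and 2 lower in the members, against 19.4% and 21.6% of all genes tested. Of the microglial genes, Tmem119 had 8.22 to 20.7 CPM and Sall1 0 to 0.481 CPM. The T cell receptor gene Trac was at 0 in all 4 sums. Of 5 T cell genes tested beside Lyve1 Fcna cells, however, 2 were higher and 0 lower in the members, with a median log2 difference of 0.85.

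Transcripts of other cells were present, and those of fibroblasts, plasma cells and endothelial cells moved with age. The 5 fibroblast markers (Col1a1, Col3a1, Dcn, Pdgfra and Lum, all 5 detected) summed to 987 and 983 CPM in aged and 3452 and 4447 CPM in young libraries in the members, and to 5692 and 5684 CPM in aged and 14612 and 14370.4 CPM in young libraries over all kept cells. The 4 plasma cell markers, all detected, summed to 278 and 427 CPM in aged and 139 and 129.6 CPM in young libraries in the members, and over all kept cells to 22941 and 37573 CPM in aged and 519 and 333 CPM in young libraries. The 4 endothelial markers, all detected, summed to 65.3 and 106 CPM in aged and 35.6 and 24.4 CPM in young libraries. The 4 proximal tubule markers, all detected, summed to 4.11 and 447 CPM in aged and 125 and 147 CPM in young libraries, so the ages overlapped. Members with 5 or more UMIs of Col1a1, Col3a1 and Dcn together made up 5.60% and 4.25% in the aged and 10.9% and 14.0% in the young libraries. The median share of mitochondrial UMIs in the members was 1.95% and 1.82% in the aged and 2.70% and 2.70% in the young libraries, and its part in the age results was not tested. Counts of age calls over all genes and over lists are given with all members and, where they differ, without the cells with fibroblast transcripts.

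Beside Lyve1 Fcna macrophages of the same libraries, the Cx3cr1 positive cells carried more transcripts of MHC class II, of the inflammatory mediators Il1b, Tnf, Ccl3 and Ccl4, and of the receptors Ccr2, Cd300c2 and Fcgr4. They carried fewer transcripts of the lectin gene Cd209d, the receptor genes Folr2, Timd4, Cd163 and Tfrc, and the cathepsin genes Ctsd and Ctsb. The gates were cut on transcripts of these same cells, so the differences are a description and no test of them is used. Differences are log2 fold changes ± SE from an edgeR fit with the library as a block. In that fit 41.0% of the 13946 genes tested passed an adjusted p of 0.05, with 19.4% higher and 21.6% lower in the Cx3cr1 positive cells, and nothing is read from the counts of list members set beside these shares.

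Of the 13 genes of MHC class II presentation, 12 were past the threshold on the higher side and 0 on the lower, with a median log2 difference of 2.05 against -0.0044 over all genes tested. H2-Ab1 (chr17:34257689-34269419), the beta chain gene of I-A, had 10403, 10854, 7016 and 6915 CPM in aged replicates 1 and 2 and young replicates 1 and 2, and 1593, 1635, 1918 and 1731 CPM in Lyve1 Fcna cells of the same libraries, a log2 difference of 2.37 ± 0.15. H2-Eb1, the beta chain gene of I-E, differed by 2.61 ± 0.14, H2-Aa, the alpha chain gene of I-A, by 2.05 ± 0.12, H2-DMb1, a subunit gene of the peptide exchange factor, by 2.25 ± 0.13, and the invariant chain gene Cd74 by 1.85 ± 0.11. The ranges of the 2 gates did not overlap for any of these 5 genes.

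Because these genes also moved together with age, as described further on, the 250 bases upstream of their starts were searched for the core letters of the Y box, the promoter element through which NF-Y acts with RFX and CIITA on class II genes. The letters TGATTGG, read on both strands, stood in 7 of the 10 list genes searched, from a list of 13. The remaining list genes were not searched. H2-Ab1 was not among the 7. Cd74 was one of the list genes left out of the search, so no result is given for it. Of the windows of all genes, 2375 of 32851 (7.23%) had the letters. That share counts windows and the list share counts genes, so the 2 are not directly comparable. The windows of 3 of the genes with a match are given as examples, from RefSeq promoters of build GRCm38.p6, 5′ to 3′ on the strand of the gene, with the Y box letters in capitals. They are H2-Eb1 (chr17:34305617-34305866, plus strand), H2-DMb1 (chr17:34152941-34153190, plus strand) and H2-Aa (chr17:34287824-34288073, minus strand).
H2-Eb1: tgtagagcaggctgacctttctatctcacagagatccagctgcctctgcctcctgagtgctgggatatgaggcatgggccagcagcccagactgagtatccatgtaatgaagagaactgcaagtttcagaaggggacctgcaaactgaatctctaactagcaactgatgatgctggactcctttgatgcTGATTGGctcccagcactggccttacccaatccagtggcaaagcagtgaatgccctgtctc
H2-DMb1: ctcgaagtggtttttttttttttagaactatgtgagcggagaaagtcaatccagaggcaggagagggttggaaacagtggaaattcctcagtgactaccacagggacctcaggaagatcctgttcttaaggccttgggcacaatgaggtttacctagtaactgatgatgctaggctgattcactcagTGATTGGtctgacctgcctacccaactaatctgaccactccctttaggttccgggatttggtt
H2-Aa: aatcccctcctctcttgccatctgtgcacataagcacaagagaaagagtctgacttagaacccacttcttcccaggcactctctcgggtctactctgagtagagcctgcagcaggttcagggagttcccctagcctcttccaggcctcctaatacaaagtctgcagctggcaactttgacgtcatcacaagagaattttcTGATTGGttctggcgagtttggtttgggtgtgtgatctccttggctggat
A match is a description of letters and shows neither binding nor use of the element.

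Inflammatory mediators formed another group on the higher side. Il1b (chr2:129364570-129371139), the gene of interleukin 1 beta, had 353, 216, 213 and 179.7 CPM in aged replicates 1 and 2 and young replicates 1 and 2, against 11.0 to 18.5 CPM in Lyve1 Fcna cells, a log2 difference of 4.20 ± 0.09. Tnf averaged 108 ± 25.2 CPM in Cx3cr1 positive cells, against 17.9 ± 2.41 CPM in Lyve1 Fcna cells (SD, n = 4 libraries each). The chemokine genes Ccl3 and Ccl4 differed by 3.87 ± 0.09 and 3.84 ± 0.19, and Ccl4 had 714, 470.2, 911 and 947 CPM, against 40.4 to 62.1 CPM. Among the 18 measured cytokine and inflammatory genes, 11 were past the threshold on the higher and 4 on the lower side. Il10, which encodes an anti-inflammatory cytokine, was among the lower ones with 6.35 ± 2.66 CPM in Cx3cr1 positive cells, against 29.8 ± 7.30 CPM in Lyve1 Fcna cells. The 22 measured chemokine genes counted 14 higher and 6 lower, and Ccl24, an eosinophil attractant gene, was lower, with a log2 difference of -3.19 ± 0.11.

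Receptors of the surface differed in both directions. Ccr2 (chr9:124101950-124113557), the receptor through which monocytes leave the marrow and enter tissue, had 525, 584, 495 and 350.3 CPM, against 31.7 to 89.1 CPM in Lyve1 Fcna cells. Among 21 measured Fc and leukocyte immunoglobulin-like receptor genes, 14 were higher and 4 lower. The activating Fc receptor gene Fcgr4 averaged 112 ± 18.8 CPM in Cx3cr1 positive cells, against 13.1 ± 2.18 CPM in Lyve1 Fcna cells, and Cd300c2 averaged 311 ± 66.9 CPM in Cx3cr1 positive cells, against 33.2 ± 9.43 CPM in Lyve1 Fcna cells. Itgax, which encodes CD11c, averaged 32.8 ± 7.33 CPM in Cx3cr1 positive cells, against 2.45 ± 1.12 CPM in Lyve1 Fcna cells. The tetraspanin gene Cd9 differed by 2.89 ± 0.12, and the beta-glucan receptor gene Clec7a by 1.57 ± 0.10.

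Signalling and transcription factor genes followed. Tgfbr1, a receptor subunit gene for TGF-beta, averaged 118 ± 9.86 CPM in Cx3cr1 positive cells, against 16.5 ± 2.37 CPM in Lyve1 Fcna cells, and Skil, a SMAD corepressor gene, averaged 76.7 ± 12.3 CPM in Cx3cr1 positive cells, against 13.6 ± 1.26 CPM in Lyve1 Fcna cells. Of 16 TGF-beta signalling genes 8 were higher and 5 lower. Runx3, a transcription factor of leukocyte differentiation, averaged 35.6 ± 10.1 CPM in Cx3cr1 positive cells, against 1.87 ± 1.30 CPM in Lyve1 Fcna cells, whereas the macrophage factor gene Maf was lower, with a log2 difference of -0.85 ± 0.06. Lpcat2, a gene of platelet-activating factor synthesis, differed by 5.02 ± 0.20, and the cyclin gene Ccnd1 by 2.55 ± 0.16.

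Genes of resident, scavenging macrophages were lower in most cases. Of 20 such genes 18 were lower and 1 higher, with a median log2 difference of -2.22. The folate receptor gene Folr2 had 186, 220.0, 247 and 253 CPM, against 2531, 2471, 2738 and 2733 CPM in Lyve1 Fcna cells. Timd4, a receptor gene for phosphatidylserine on dying cells, averaged 14.3 ± 10.2 CPM in Cx3cr1 positive cells, against 256 ± 45.4 CPM in Lyve1 Fcna cells. The log2 difference was -5.67 ± 0.20 for the lectin gene Cd209d, -5.54 ± 0.11 for the endothelin receptor gene Ednrb and -2.04 ± 0.12 for the haemoglobin-haptoglobin receptor gene Cd163. Retnla, a gene induced by type 2 cytokines, averaged 2740.3 ± 1944 CPM in Cx3cr1 positive cells, against 12994 ± 2722 CPM in Lyve1 Fcna cells.

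Of 24 lysosome and cathepsin genes 17 were lower and 2 higher. The cathepsin genes Ctsd and Ctsb were lower, with log2 differences of -1.74 ± 0.09 and -1.44 ± 0.06, while Ctss, the cathepsin that trims the invariant chain, was higher by 0.93 ± 0.05. Of 15 iron and haem genes 13 were lower, among them the transferrin receptor gene Tfrc (-2.58 ± 0.10) and the haem oxygenase gene Hmox1 (-1.34 ± 0.07). Complement genes counted 9 lower and 3 higher of 16, with a log2 difference of -1.97 ± 0.07 for properdin (Cfp). Haemoglobin transcripts stood out in 1 library: Hbb-bs had 0.514, 1.80, 4.81 and 1825 CPM in aged replicates 1 and 2 and young replicates 1 and 2. Only 22 of 630 young members had an Hbb-bs UMI, and 1 cell held 43.0% of the 2855 young UMIs.

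Low macrophages, which differ from the members by the absence of a Cx3cr1 UMI, had mean levels of H2-Ab1, Il1b, Ccl4 and Tgfbr1 between those of the other gates. In this comparison 11.3% of 11152 genes tested passed the threshold, 5.37% higher and 5.94% lower in Cx3cr1 positive cells, and it too is a description. H2-Ab1 averaged 8797 ± 2123 CPM in Cx3cr1 positive cells, against 5459 ± 488 CPM in low cells, a log2 difference of 0.75 ± 0.09. Il1b averaged 240.3 ± 76.9 CPM in Cx3cr1 positive cells, against 102 ± 11.9 CPM in low cells, and Ccl4 averaged 760.4 ± 219 CPM in Cx3cr1 positive cells, against 238 ± 61.0 CPM in low cells. Tgfbr1 averaged 118 ± 9.86 CPM in Cx3cr1 positive cells, against 34.3 ± 6.45 CPM in low cells, and Pmepa1, a target and inhibitor of TGF-beta signalling, 115 ± 13.4 CPM in Cx3cr1 positive cells, against 39.3 ± 17.0 CPM in low cells. For each of these 5 genes the 4 values of each gate did not overlap.

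Low cells had more Retnla, with 8556, 4729, 14209.9 and 13468 CPM in aged replicates 1 and 2 and young replicates 1 and 2, against 1292, 1677, 5571 and 2421 CPM in the members. Also lower in the members were the chemokine gene Ccl8, with a log2 difference of -1.42 ± 0.09, the lectin gene Cd209f (-2.04 ± 0.16) and the fibronectin gene Fn1 (-1.41 ± 0.11). Proximal tubule transcripts differed by library as well as by gate: Kap, an abundant proximal tubule gene, had 2.06, 327, 93.8 and 106 CPM in the members and 4.01, 436, 1512 and 2763 CPM in low cells. A single aged member held 45.8% of the 911 Kap UMIs of the aged members. A Cx3cr1 UMI is drawn more often from a deep cell. With every cell thinned to 2000 UMIs and gated again, 1589 of 8581 genes passed the threshold, against 1261 of 11152 in the main comparison. With at least 2 Cx3cr1 UMIs required of members, 1352 of 11243 genes passed. The part of sampling in the comparison with low cells was not tested beyond these settings.

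The share of Cx3cr1 positive cells among gated macrophages was 15.3% (exact 95% binomial interval 13.6 to 17.2) and 19.1% (17.6 to 20.6) in the aged libraries, against 13.2% (11.9 to 14.5) and 9.01% (8.01 to 10.1) in the young libraries. The aged mean was 17.2 ± 2.64% and the young mean 11.1 ± 2.94% (SD, n = 2 each), a difference of 6.13 percentage points. Both aged values lay above both young values, and the two-sided exact permutation test gave p = 0.333, the smallest value that 2 libraries against 2 can give. With every cell thinned to 2000 UMIs, the means were 12.8 ± 2.25% in aged and 9.08 ± 2.12% in young libraries, a difference of 3.68 points. Over all kept cells the share was 3.91 ± 0.304% in aged and 3.40 ± 0.821% in young libraries, and there the ages overlapped (p = 0.667, two-sided exact permutation test). The intervals cover counting error only.

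**Figure D2:**
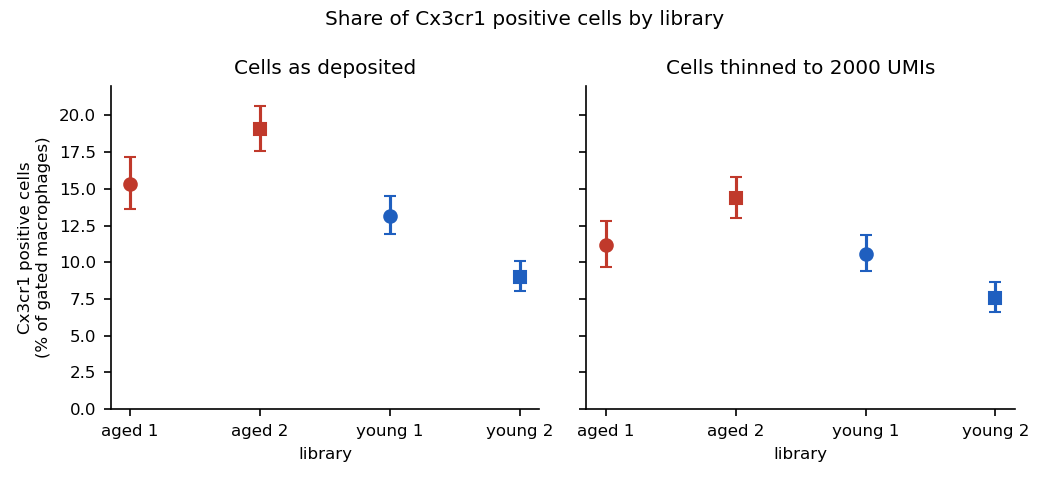
Share of Cx3cr1 positive cells among gated macrophages in each library (percent, with exact 95% binomial intervals), for cells as deposited and for cells thinned to 2000 UMIs. Aged replicate 2 is highest and young replicate 2 lowest in both panels, and the aged means lie 6.13 and 3.68 points above the young means.

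Across the genes of these cells, aged libraries had more MHC class II, CD209 lectin, Ccl8 and Vcam1 transcripts, and young libraries had more collagen and matrix transcripts. Of 10218 genes tested by edgeR's quasi-likelihood test with Benjamini-Hochberg adjustment, 663 (6.49%) passed an adjusted p of 0.05, with 191 (1.87%) higher and 472 (4.62%) lower in aged libraries. Without the cells with 5 or more fibroblast UMIs, 169 of 9332 genes (1.81%) passed, with 84 (0.900%) higher and 85 (0.911%) lower. Of the genes higher in the first fit 77 were higher again, which is 40.3% of that list and 91.7% of the shorter one. Of the genes lower in the first fit 77 were lower again, which is 16.3% and 90.6% of the 2 lists. Counts of list genes that rose or fell with age, given below, are to be read against these shares of all genes tested. Changes below are aged over young on the log2 scale, with SE.

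**Figure D3:**
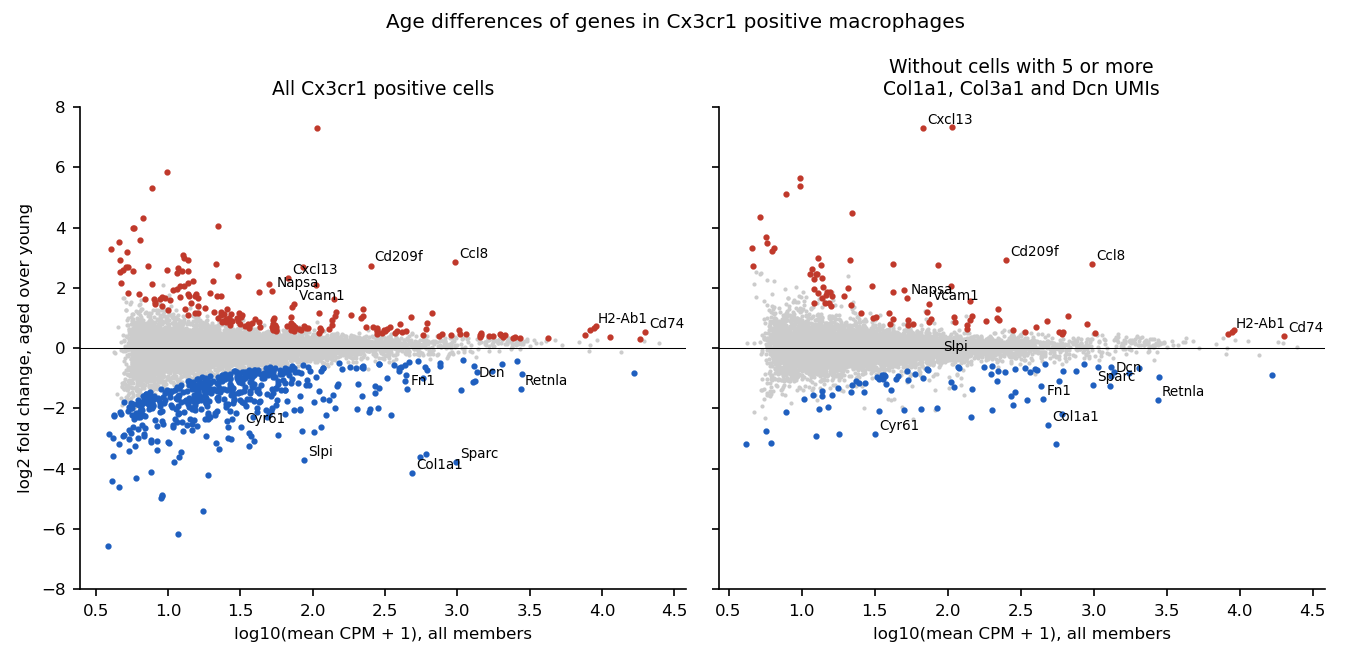
Log2 fold change, aged over young, against log10 of mean CPM + 1, for all members (left, 191 genes higher and 472 lower) and without cells with 5 or more Col1a1, Col3a1 and Dcn UMIs (right, 84 higher and 85 lower). Red points are higher and blue points lower in aged libraries at an adjusted p of 0.05, and grey points did not pass. Ccl8, Cd209f and the MHC class II genes stay on the higher side in both panels.

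MHC class II genes rose with age in Cx3cr1 positive cells. H2-Eb1 (chr17:34305867-34316674) had 10874 and 11422 CPM in aged libraries, against 7354 and 6842 CPM in young libraries, a change of 0.72 ± 0.09 (edgeR adjusted p = 2.5e-05). H2-Ab1 had 10403 and 10854 CPM in aged libraries, against 7016 and 6915 CPM in young libraries, a change of 0.68 ± 0.09 (edgeR adjusted p = 4.6e-05). The values of the 2 ages did not overlap for either gene, and both aged libraries were close to each other. Ifi30, a lysosomal thiol reductase gene of antigen processing, had 502 and 501 CPM in aged libraries, against 288 and 318 CPM in young libraries and rose by 0.80 ± 0.13 (edgeR adjusted p = 0.00041). H2-Aa rose by 0.61 ± 0.09, H2-DMb1 by 0.63 ± 0.12 and Cd74 by 0.53 ± 0.08.

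Of 12 class II list genes tested 9 rose and 0 fell, with a median of 0.65 against -0.0067 over all genes tested. Without the fibroblast-transcript cells 6 of 12 rose and 0 fell, with a median of 0.50. H2-Eb1, H2-Ab1, H2-Aa, H2-DMb1, Ifi30 and Cd74 each passed the threshold without any 1 library, and H2-Ab1 then changed by 0.65 to 0.72. Ctss, with 2066 and 1882 CPM in aged libraries, against 1581 and 1543 CPM in young libraries, also rose (0.41 ± 0.10), but that call was lost without aged replicate 1, without young replicate 1 and without young replicate 2. Of 17 MHC class I genes, which present peptides from inside the cell, 0 passed in edgeR and 0 in DESeq2, and 3 had an unadjusted p under 0.05. H2-D1, the class I gene with the highest level, had 2567 and 2757 CPM in aged libraries, against 2420.4 and 2391 CPM in young libraries (edgeR adjusted p = 0.27).

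**Figure D4:**
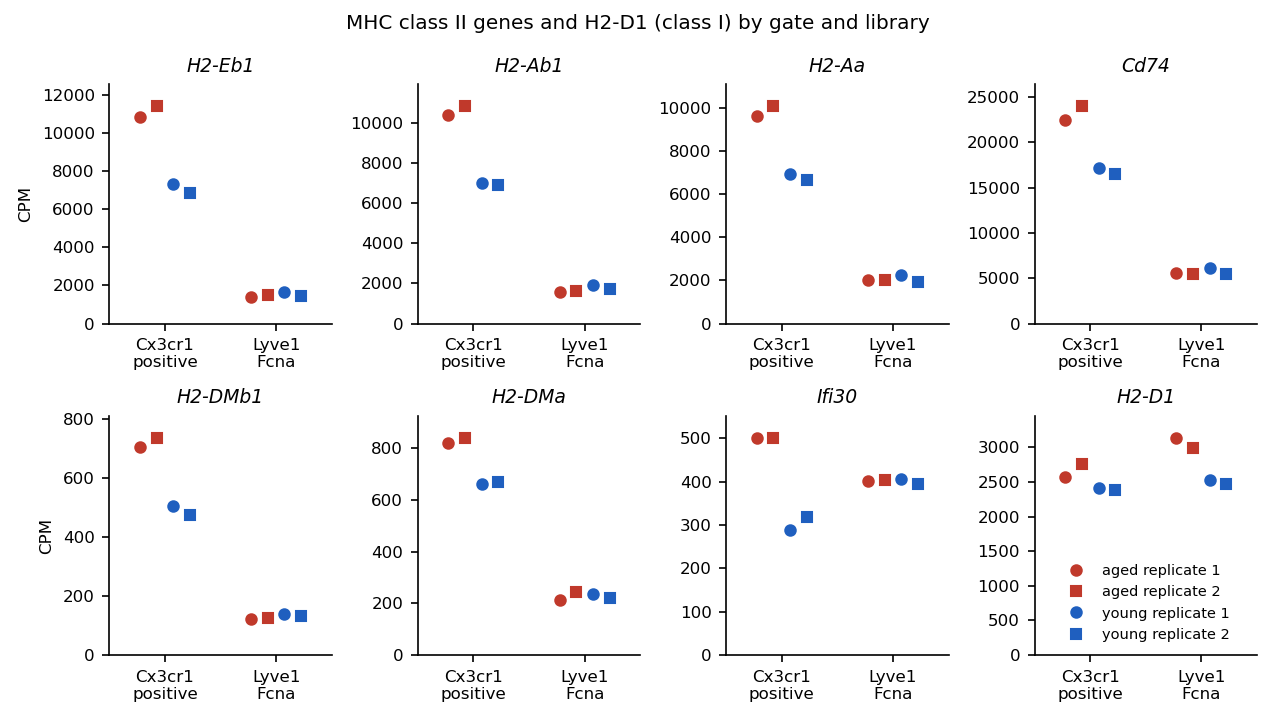
CPM per library (linear axes from 0) of 7 MHC class II presentation genes and the class I gene H2-D1, in Cx3cr1 positive and Lyve1 Fcna macrophages. In Cx3cr1 positive cells both aged points of the 7 class II genes lie above both young points. In Lyve1 Fcna cells H2-Ab1 lies between 1593 and 1918 CPM, with both young points above both aged points.

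Chemokine genes moved singly. Ccl8 (chr11:82115185-82116799), which encodes a monocyte and T helper cell attractant, had 1469 and 1912 CPM in aged libraries, against 214 and 278 CPM in young libraries. All aged values lay above all young values, with a change of 2.86 ± 0.16 (edgeR adjusted p = 1.8e-09), and of 2.65 to 3.09 when any 1 library was left out. Ccl5, a T cell attractant gene, had 165 and 169.8 CPM in aged libraries, against 54.3 and 25.7 CPM in young libraries and rose by 2.10 ± 0.21 (edgeR adjusted p = 3.7e-06), and by 1.05 with doublets removed (edgeR adjusted p = 0.017). Ccl5 is also a T cell gene, gated T cells numbered 1286 and 2106 in aged and 203 and 159 in young libraries, and their part in this rise was not tested. Cxcl13, the B cell attractant gene, had 123 and 95.9 CPM in aged libraries, against 7.21 and 41.7 CPM in young libraries and rose by 2.33 ± 0.36. A single young cell held 68.8% of the 80 young Cxcl13 UMIs, the change was 1.44 to 4.01 without any 1 library, with the lowest value without young replicate 1 and the highest without young replicate 2. It was 7.29 without the fibroblast-transcript cells and 6.57 with doublets removed, and the call was lost with DESeq2 and with at least 2 Cx3cr1 UMIs required. Of 20 chemokine genes tested 4 rose and 3 fell, and without the fibroblast-transcript cells 3 rose and 4 fell of 19. Ccl12, a marker of these cells, had 641 and 655 CPM in aged libraries, against 627 and 789 CPM in young libraries, and no test is given for it.

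Of 11 chemokine receptor genes 2 fell and 0 rose in edgeR, and 1 fell and 0 rose in DESeq2, with 1 higher and 2 lower at an unadjusted p under 0.05. Without the fibroblast-transcript cells 1 of 10 fell. Ccr2 had 525 and 584 CPM in aged libraries, against 495 and 350.3 CPM in young libraries and did not pass (edgeR adjusted p = 0.067). Its change of 0.46 ± 0.14 passed in 5 of 13 alternatives, which were no filter on low counts, leaving out aged replicate 1, leaving out young replicate 1, the replicate block, and thinning, where it was 1.09 (edgeR adjusted p = 5.4e-05). Of 18 cytokine and inflammatory genes 0 passed in edgeR and 0 in DESeq2, and 4 had an unadjusted p under 0.05 (3 higher, 1 lower).

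CD209 lectin genes, which encode relatives of the dendritic cell receptor DC-SIGN, rose in these cells. Cd209f had 518 and 345 CPM in aged libraries, against 47.6 and 90.5 CPM in young libraries, a change of 2.73 ± 0.23 (edgeR adjusted p = 5.8e-07). Cd209g had 173 and 119 CPM in aged libraries, against 22.1 and 25.7 CPM in young libraries, a change of 2.68 ± 0.21 (edgeR adjusted p = 2.4e-07). Cd209b rose by 2.78 ± 0.37, or by 2.01 to 3.94 without any 1 library, with the lowest value without young replicate 1 and the highest without young replicate 2, and Cd209a by 2.39 ± 0.27. Cd209a is also a dendritic cell gene. Gated dendritic cells numbered 98 and 134 in aged and 57 and 35 in young libraries, and their part in the Cd209a rise was not tested. Lyve1 Fcna cells of the same libraries held more Cd209f, with 4492 and 4375 CPM in aged and 2521 and 2799.9 CPM in young libraries.

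Further pattern and adhesion receptors rose. Clec4n, the gene of the fungal mannan receptor dectin-2, had 85.3 and 72.8 CPM in aged libraries, against 17.3 and 20.5 CPM in young libraries and rose by 2.14 ± 0.20 (edgeR adjusted p = 1.3e-06). Vcam1, a ligand of the integrin VLA-4, had 113 and 100.3 CPM in aged libraries, against 40.4 and 41.1 CPM in young libraries and rose by 1.45 ± 0.16 (edgeR adjusted p = 1.2e-05). Its 2 ages did not overlap, and both libraries of an age were close to each other. Slamf7, a receptor gene of immune cells, rose by 1.37 ± 0.17, and Itgb7, an integrin chain gene, by 1.67 ± 0.30. Clec12a, an inhibitory receptor gene for uric acid crystals, rose by 0.70 ± 0.13. Of 18 Fc and leukocyte immunoglobulin-like receptor genes 5 rose and 0 fell, against 1.87% higher and 4.62% lower over all genes tested. Without the fibroblast-transcript cells 0 rose and 1 fell, against 0.900% and 0.911%. The inhibitory Fc receptor gene Fcgr2b was 1 of the 5, with 395 and 348 CPM in aged libraries, against 277 and 243 CPM in young libraries, and its adjusted p was 0.01 with all members and 0.11 without those cells in the same edgeR test. Its call was also lost without aged replicate 1 and without young replicate 2.

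Genes of lipid, iron and protease biology rose in smaller numbers. Pla2g2d, a secreted phospholipase gene, had 245 and 173 CPM in aged libraries, against 62.5 and 80.8 CPM in young libraries and rose by 1.61 ± 0.18 (edgeR adjusted p = 1.3e-05). Lgals3, the galectin-3 gene, had 759 and 785 CPM in aged libraries, against 481 and 428 CPM in young libraries and rose by 0.83 ± 0.12 (edgeR adjusted p = 0.00014). Of 17 lipid-associated macrophage genes 5 rose and 1 fell, and 2 rose and 1 fell without the fibroblast-transcript cells. The one that fell was the lipoprotein lipase gene Lpl, with 399.8 and 496 CPM in aged libraries, against 796 and 758 CPM in young libraries (edgeR adjusted p = 0.0013). Slc40a1 (chr1:45908068-45926523), the gene of the iron exporter ferroportin, had 80.7 and 48.0 CPM in aged libraries, against 18.8 and 18.0 CPM in young libraries and rose by 1.84 ± 0.25 (edgeR adjusted p = 9.0e-05). The aspartic protease gene Napsa rose by 1.88 ± 0.21, the matrix metalloproteinase gene Mmp9 by 1.16 ± 0.17, and the complement gene C4b by 1.18 ± 0.18. The calls of Slc40a1, Lpl and Mmp9 were lost when cells were thinned to 2000 UMIs.

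Collagen and matrix genes were among the largest falls. Col1a1, a collagen I chain gene made by fibroblasts, had 54.0 and 44.7 CPM in aged libraries, against 683 and 1149 CPM in young libraries, a change of -4.16 ± 0.22 (edgeR adjusted p = 1.6e-09). Lyve1 Fcna cells showed the same order, with 18.5 and 31.7 CPM in aged and 324 and 328 CPM in young libraries. Sparc, a matrix protein gene, changed by -3.79 ± 0.22 and Col3a1 by -3.62 ± 0.19. Fibroblast markers moved with these genes, as given above, and their part was not tested beyond leaving out cells. Without the cells with 5 or more UMIs of Col1a1, Col3a1 and Dcn, Col1a1 changed by -2.55, Sparc by -1.23 and Col3a1 by -3.19. Smoc2, Pcolce and Col6a2 no longer passed, with changes of -0.95, -0.90 and -2.37, against -2.77, -2.63 and -2.90 with all members. With doublets removed the changes were larger in size, with -6.16 for Col1a1, -5.68 for Sparc, -6.49 for Col3a1 and -4.98 for Col6a2. The cells with 5 or more UMIs of Col1a1, Col3a1 and Dcn were chosen by those same transcripts. The values of Col1a1 and Col3a1 in the fit without them therefore follow in part from its construction. Slpi, a protease inhibitor gene, changed by -3.73 ± 0.41 with all members and by -0.25 without those cells, and 1 young cell held 42.8% of its 545 young UMIs.

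Some genes that macrophages are known to express also fell. Fn1, the fibronectin gene, had 253 and 230.1 CPM in aged libraries, against 838 and 469 CPM in young libraries and fell by 1.37 ± 0.19 on the log2 scale (edgeR adjusted p = 9.1e-05). Retnla had 1292 and 1677 CPM in aged libraries, against 5571 and 2421 CPM in young libraries and fell by 1.35 ± 0.23 (edgeR adjusted p = 0.00089). Young replicate 1 stood far above young replicate 2 for both genes, and the Retnla call was lost with DESeq2 and after thinning. Over the libraries left out in turn the Retnla change was -1.80 to -0.64, with the smallest size without young replicate 1. The complement gene C2 had 18.5 and 10.1 CPM in aged libraries, against 48.1 and 53.9 CPM in young libraries and changed by -1.81 ± 0.25 (edgeR adjusted p = 0.00011), a call lost after thinning. Cyr61, which encodes a secreted matricellular protein, changed by -2.63 ± 0.26, and by -2.85 without the fibroblast-transcript cells. The heat shock gene Hspa1b, induced by cell stress, had 225 and 95.6 CPM in aged libraries, against 487 and 341 CPM in young libraries and changed by -1.33 ± 0.25, a call lost with DESeq2, and aged replicate 2 was the lowest. The mitochondrial share given above was also higher in both young libraries.

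Several gene groups had small numbers of calls or none, to be read against 1.87% higher and 4.62% lower over all genes tested. Of 35 nuclear-encoded oxidative phosphorylation genes 0 passed in edgeR and 0 in DESeq2, while 9 had an unadjusted p under 0.05, all higher. Of 18 glycolysis and hypoxia genes 0 passed in edgeR and 0 in DESeq2, and 2 had an unadjusted p under 0.05. Of 22 interferon-stimulated genes 1 rose and 2 fell (1 and 3 without the fibroblast-transcript cells), and the gene with the highest level of the 2, Ifi27l2a, had 1583 and 1632 CPM in aged libraries, against 2284 and 2599.8 CPM in young libraries (edgeR adjusted p = 0.0039), a call lost without young replicate 2. At an unadjusted edgeR p under 0.05, 1 interferon-stimulated gene was higher and 7 were lower. The median of that list was -0.22, against -0.0067 over all genes tested, and -0.34 against 0.0022 without the fibroblast-transcript cells. Of 24 lysosome and cathepsin genes 1 rose, of 14 TGF-beta signalling genes 2 fell, and of 26 macrophage transcription factor genes 2 rose and 1 fell. Unadjusted counts, higher and lower, were 5 and 0 for lysosome, 0 and 3 for TGF-beta and 4 and 2 for transcription factor genes. Without the fibroblast-transcript cells the lysosome and TGF-beta calls and both rises of transcription factor genes were lost. The transcription factor gene Runx1 was the one that fell, with 157 and 139.6 CPM in aged libraries, against 271 and 225 CPM in young libraries, a call lost without aged replicate 2 and without young replicate 1. Of 15 senescence and cell cycle inhibitor genes 1 rose and 1 fell, and without those cells the rise was lost and 2 of 14 fell.

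The remaining lists are given by their counts, to be read against 1.87% higher and 4.62% lower over all genes tested, and against 0.900% and 0.911% without the fibroblast-transcript cells. Of 20 growth and matrix factor genes 1 rose and 7 fell, with Fn1 among them and a median of -0.22, whereas without those cells 1 rose and 3 fell of 18, with a median of 0.086. Of 18 genes of resident and type 2 macrophages 4 rose and 3 fell, and 3 rose and 2 fell without those cells. Of 13 complement genes 2 rose and 3 fell, and 3 rose and 1 fell without them. Of 15 iron and haem genes 2 rose and 1 fell, and without them 1 rise and no fall passed. Of 19 integrin and adhesion genes 3 rose, and again 3 of 18 without them. Of 15 toll-like and pattern receptor genes 2 rose with and without them. Of 15 phagocytosis and efferocytosis receptor genes 2 fell, and 1 fell without them. Of 14 microglia-like core genes 2 rose and 2 fell, and 1 rose and 1 fell without them. Of 19 dissociation and immediate early genes 1 rose and 3 fell, and without them the rise was lost and 3 fell. Of 19 cholesterol and lipid efflux genes 1 rose, of 20 unfolded protein response genes 1 fell, and both calls were lost without them.

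Some markers of other cells were higher in aged libraries. The immunoglobulin light chain gene Igkc had 136 and 286 CPM in aged libraries, against 1.92 and 0.642 CPM in young libraries, and the endothelial gene Plvap had 36.5 and 42.6 CPM in aged libraries, against 1.44 and 3.85 CPM in young libraries. The plasma cell markers of all kept cells moved in the same direction, as given above, and the part of free RNA in these values was not tested.

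Whether an age change differed between Cx3cr1 positive and Lyve1 Fcna cells was tested with a gate-by-age term, with the library as a block. Of 13946 genes 169 (1.21%) passed an adjusted p of 0.05, with 115 (0.825%) more positive and 54 (0.387%) more negative in Cx3cr1 positive cells. Of 13 class II genes 6 were more positive and 0 more negative, with a median term of 0.68 against 0.037 over all genes tested.

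The age change of several class II genes was more positive in Cx3cr1 positive than in Lyve1 Fcna cells. H2-Ab1 in Lyve1 Fcna cells had 1593 and 1635 CPM in aged libraries, against 1918 and 1731 CPM in young libraries, a change of -0.13, and the difference between the gates was 0.85 ± 0.08 (edgeR adjusted p = 2.5e-05). The terms of H2-Eb1, Ifi30, H2-DMb1, H2-Aa and Cd74 were 0.84 ± 0.08, 0.79 ± 0.10, 0.76 ± 0.10, 0.65 ± 0.08 and 0.61 ± 0.08. All 6 passed the threshold without any 1 library, and H2-Ab1 then had a term of 0.74 to 0.92. In Lyve1 Fcna cells the young values of H2-Ab1 lay above the aged ones, whereas in Cx3cr1 positive cells the aged values lay above the young ones.

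Ccr2 differed by 1.72 ± 0.11 (edgeR adjusted p = 3.1e-07), with 31.7 and 31.9 CPM in aged libraries, against 89.1 and 62.8 CPM in young libraries in Lyve1 Fcna cells and the opposite order in Cx3cr1 positive cells. Slc40a1 differed by 2.29 ± 0.20 (edgeR adjusted p = 1.5e-05), with 152 and 137 CPM in aged libraries, against 199 and 196 CPM in young libraries in Lyve1 Fcna cells. Mmp9 differed by 1.52 ± 0.13, with 447 and 442 CPM in aged libraries, against 599 and 545 CPM in young libraries in Lyve1 Fcna cells. Cd209f rose in both gates, with a term of 2.00 ± 0.19 (edgeR adjusted p = 2.5e-05) for the larger log2 rise in Cx3cr1 positive cells, where its level remained below that of Lyve1 Fcna cells. Clec4b1, a C-type lectin receptor gene, differed by 1.14 ± 0.11.

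Trem2, the gene of a lipid-sensing receptor, had a negative term. It had 354 and 301 CPM in aged libraries, against 219.7 and 244 CPM in young libraries in Cx3cr1 positive cells, and 358 and 390.3 CPM in aged libraries, against 115 and 142 CPM in young libraries in Lyve1 Fcna cells. The aged values lay above the young ones in both gates, and the term was -0.98 ± 0.12 (edgeR adjusted p = 0.00042). Ccl8 rose in both gates, with 7525 and 8348 CPM in aged libraries, against 1782 and 1830.1 CPM in young libraries in Lyve1 Fcna cells, and its term of 0.72 ± 0.12 no longer passed without young replicate 1, after thinning or with at least 2 Cx3cr1 UMIs required. The marker Lilra5 had 150.1 and 137 CPM in aged and 217 and 197 CPM in young libraries in Cx3cr1 positive cells and 5.20 and 4.81 CPM in aged and 14.9 and 14.3 CPM in young libraries in Lyve1 Fcna cells.

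**Figure D5:**
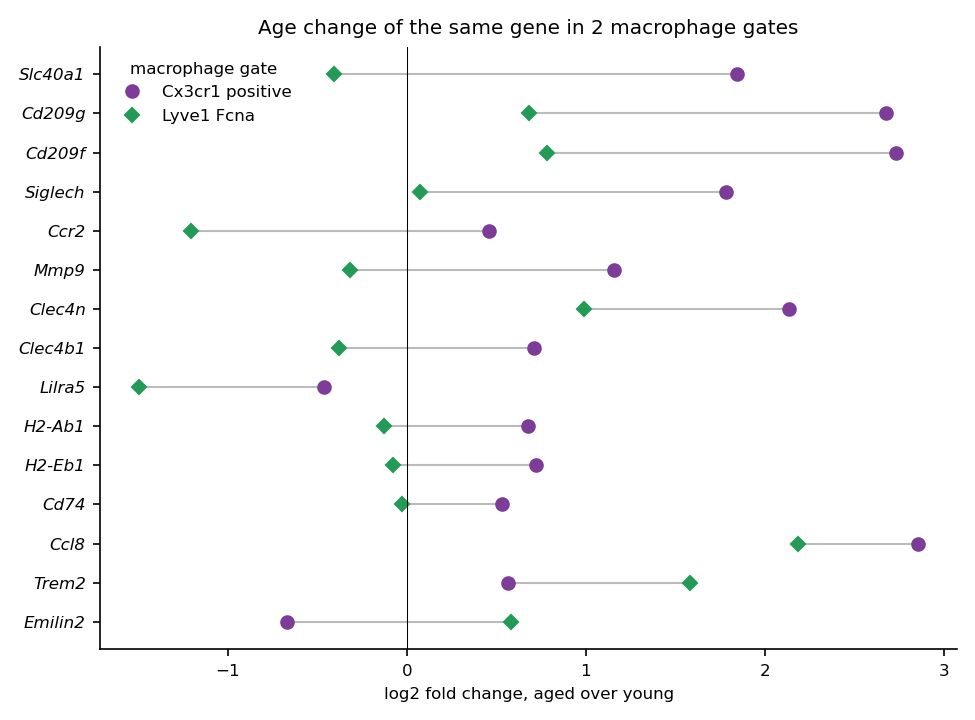
Log2 fold change, aged over young, of 15 genes in Cx3cr1 positive (circles) and Lyve1 Fcna (diamonds) macrophages, with a line joining the 2 values of a gene. H2-Ab1 stands at 0.68 and -0.13, and Trem2 at 0.57 and 1.58.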

How the data were processed

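Barcodes of 4 libraries, 2 aged and 2 young, were analysed from the deposited matrices, which hold raw UMI counts per gene and barcode without normalization. Per the submitters' processing notes these were made with Cell Ranger 6.0.2 on build GRCm38, while the file headers name version 6.0.1. The annotation behind the counts is not given in the sources used here. For names, of 52636 genes, 52403 (99.6%) had their identifier in GENCODE M21, which gave the coordinates. The libraries held 51180311 and 65118489 UMIs (aged) and 68052444 and 70925446 UMIs (young).

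Barcodes were kept with at least 500 UMIs, 300 genes and at most 20% mitochondrial UMIs. Doublets were kept, and removed in an alternative by Scrublet score at 0.8% of barcodes per 1000 barcodes. Counts of gated cells were summed per library, filtered by filterByExpr, scaled by TMM and tested with edgeR 4.0.16 (glmQLFTest, R 4.3.3, limma 3.58.1), with Benjamini-Hochberg adjustment over all genes tested at 0.05. DESeq2 1.42.0 was an alternative. The SE is the log2 fold change divided by the square root of F. Levels are CPM without TMM. The 10 gate genes were left out of tests, and the procedure was tested on simulated data. Libraries of 1 age differed beyond counting error (chi-square over degrees of freedom 2.83 aged, 2.38 young). Where identifiers shared a symbol, lists used the one with the most UMIs.

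Genes named are the gate genes and markers, up to 5 members with the largest changes of each of 25 lists (at least 20 CPM in 1 group) with the member of highest level, the 12 largest changes in each direction (at least 50 CPM for age, 100.0 CPM between gates, and at least 0.25 times the level over all cells) and 5 in each direction for the gate-by-age term. The members, lists, markers and tests were chosen with earlier results of these data known. Lyve1 Fcna and low cells come from the same libraries as the members, so the comparisons share samples. Sub-clusters were made with scanpy 1.11.5 and leidenalg 0.10.2 (Python 3.11.15) from 2000 variable genes, 20 components and 15 neighbours at resolution 0.5. Intervals are exact binomial at 95%.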

Additional observations from a re-analysis of the deposited data

Results flagged for a closer look

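The age change of 11 named genes differed between Cx3cr1 positive and Lyve1 Fcna macrophages by the gate-by-age term in edgeR (adjusted p over 13946 genes). The term, the log2 age change in Cx3cr1 positive minus that in Lyve1 Fcna cells, was positive for Napsa (2.49, adjusted p = 0.0023), Slc40a1 (2.29), Cd209g (2.02), Cd209f (2.00), Cxcl9, an interferon-induced chemokine gene (1.91), and Lilra5 (1.08). Lilra5, a gate marker named with earlier results known, was lower in aged than in young cells of both gates, by less in Cx3cr1 positive cells, and its term no longer passed after thinning. The term was negative for Slpi (-4.42), Emilin2, a matrix glycoprotein gene (-1.19), Nupr1, a stress response gene (-1.12), Rcn3, a calcium-binding protein gene of the endoplasmic reticulum (-0.99), and Trem2 (-0.98).

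Slc40a1, Cd209g, Cd209f and Trem2 kept their call under every alternative run. Napsa and Cxcl9 lost theirs without young replicate 1, where the range over the libraries left out was 1.81 to 3.46 and 1.35 to 2.42. In Lyve1 Fcna cells Cxcl9 had 14.2 and 21.4 CPM in aged and 66.5 and 25.1 CPM in young libraries, with young replicate 1 the highest. Emilin2 and Nupr1 lost theirs without the fibroblast-transcript cells, at -0.71 and -0.30, and after thinning. The Rcn3 term turned to 0.29 after thinning and to 0.53 without the fibroblast-transcript cells, and its call was lost with doublets removed. Slpi had a UMI in 17 of 744 aged and 24 of 630 young Cx3cr1 positive cells, and its call was lost after thinning. Lyve1 Fcna cells had 294 and 33.5 CPM in aged and 50.2 and 129 CPM in young libraries of Slpi, with aged replicate 1 the highest.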

How the results depend on the processing

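With 2 libraries per age the calls of single genes depend on each library, and the share has no test that could pass 0.05. The 663 age calls became 274 with DESeq2, 403 with doublets removed, 115 after thinning (5709 genes tested), 169 without the fibroblast-transcript cells, and 404 to 752 without any 1 library, with 404 without young replicate 2. Higher calls made up 28.8%, but 49.6% after thinning, 49.7% without the fibroblast-transcript cells and 39.4% with no filter on low counts. The gate comparison with Lyve1 Fcna cells gave 5724 calls, 3125 after thinning and 4483 to 4947 without any 1 library, and higher calls were 47.3%, or 37.1% with no filter. The comparison with low cells gave 1261 calls, 603 with DESeq2, 1944 with no filter and 1589 after thinning. It gave 482 to 1158 calls without any 1 library, with 482 without young replicate 1 and 661 without young replicate 2. The 169 gate-by-age calls became 74 with DESeq2, 389 with no filter, 255 with doublets removed, 60 after thinning and 53 to 177 without any 1 library, with 53 without young replicate 1, and higher terms were 68.0% of calls but 86.7% after thinning. The cause of these moves was not tested, beyond the fewer genes or samples in each fit. Only Rcn3 reversed its gate-by-age term among named genes, to 0.29 after thinning and 0.53 without the fibroblast-transcript cells. The difference in share was 4.05 to 8.20 points without any 1 library.

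Replicate numbers were shared by the ages, but the labels do not say what a number marks, and with 2 pairs the deviations of same-numbered libraries correlated at r = 0.122 over 10218 genes. With the replicate number as a block the age fit gave 874 calls, against 663 without it. In the gate fits the library is the block, and without it they gave 5443 and 1113 calls. The removal of cells with fibroblast transcripts was chosen after seeing the data.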

Other observations

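Clustering of the 1374 cells split them into 6 groups, each with cells from every library, and left without cell type names. The genes that define a group are a description, with no test. Several of them, such as Ccl8, Cd209f and Slc40a1, changed with age in these cells, so the sizes of the groups are not compared between ages. A group of 389 cells (28.3%) was led by Cd72, Sh2d1b1, Tgfbr1, Asb2 and Runx3. It had 419.9 CPM of Il1b and 13876 CPM of H2-Ab1, the highest H2-Ab1 level of the 6. A group of 364 cells (26.5%) was led by Ccl8, Pla2g2d, Cd209f, Mmp9 and Slc40a1, genes that rose with age over all members. It had 2465 CPM of the mannose receptor gene Mrc1, and Il1b was at 62.3 CPM. A group of 312 cells (22.7%) was led by Kap, Ccl12 and the interferon-stimulated genes Ifit3, Isg15 and Irf7, with 1904 CPM of Ccl12 and 1692 CPM of Ccl4.

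A group of 182 cells (13.2%) was led by Lyz1, Retnla, Ear2, S100a4 and Mmp12. It held 11757 CPM of Retnla, against 83.8 to 1056 CPM in the others, and 1314 CPM of Ccr2. Its Ccl12 and Lilra5 levels, 26.8 and 17.7 CPM, were the lowest of the 6 groups. A group of 92 cells (6.70%) was led by fibroblast genes, with 3380.3 CPM of Col1a1, against 14.2 to 34.0 CPM in the others, and a median of 10961.5 UMIs per cell. A group of 35 cells (2.55%) was led by the endothelial genes Plvap, Ptprb, Cdh5 and Pecam1. The part of doublets in the groups led by fibroblast and endothelial genes was not tested.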
